A study of Drosophila melanogaster with 32 samples.

Results

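The male fertility genes of the Drosophila melanogaster Y chromosome were examined in whole adult flies of 4 stocks. They were taken as the rows of the gene count table that lie on Y and carry the symbols kl-2, kl-3, kl-5, ORY, CCY, PRY, Ppr-Y, ARY and WDY. All 9 were found, out of 113 rows on Y and 17490 rows in all. Pof[D119] flies carry a deletion in Pof, whose protein binds genes of chromosome 4. Zhr[1] flies lack the large pericentromeric satellite block of X, and the methods of the study state that their males have a wild type Y that is not translocated. PoX2[Df1.688] flies lack a short array of the same satellite family next to CG1840, also on X, and Oregon R was the wild type. Males and virgin females gave 8 groups of 4 libraries, 32 in all, and each library pooled 10 flies, 3 of them collected at 6 to 8 h, 4 at 14 to 16 h and 3 at 22 to 24 h after hatching. The stocks were not made isogenic, so the allele, the background and, in males, the Y of each stock cannot be told apart.

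The Drosophila Y is almost entirely heterochromatin, and its few protein-coding genes are used in the male germline. Several are gigantic because their introns are filled with satellite repeats. In primary spermatocytes kl-5, kl-3 and ORY unfold into lampbrush-like loops, which hold RNA-binding proteins, and loss of a fertility factor leaves males alive but without functional sperm. XX females normally have no Y, and so no template for these genes. The genes were listed by the role of their products as axonemal dynein heavy chains (kl-2, kl-3, kl-5), coiled-coil proteins (ORY, CCY) and others. These others are ARY, an aldehyde reductase, PRY, a polycystin-related protein, Ppr-Y, a protein phosphatase-related gene, and WDY, a WD-repeat protein.

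In the release 6 assembly of the fly genome the genes stood along Y in the order kl-5 (chrY:22250-137486), PRY (chrY:146092-192020), kl-3 (chrY:336381-563165), kl-2 (chrY:573088-664173), ARY (chrY:702430-704048), Ppr-Y (chrY:1636574-1884846), WDY (chrY:2273422-2487777), ORY (chrY:3561745-3618339) and CCY (chrY:3649996-3666928). Their spans ran between 1619 bp for ARY and 248273 bp for Ppr-Y, whereas the exons counted summed to 1392 bp for ARY and to 13882 bp for kl-3. Counts did not use strand. The spans of kl-3, Ppr-Y and WDY each overlap a noncoding row (CR45947, CR40441 and CR45948), and reads of such overlaps are uncertain, although these rows held only 21, 0 and 63 counts over the 16 male libraries.

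Libraries held between 12186486 and 37992591 counted read pairs, the fewest in PoX2[Df1.688] males and the most in wild type males. Pof checked the labels, at 11.2 to 12.7 CPM (counts scaled to the size of the library) in Pof[D119] males against 289 to 326 CPM in wild type males, and at 6.91 to 10.2 CPM in Pof[D119] females against 13.5 to 15.1 CPM in wild type females. The roX RNAs of male dosage compensation summed to 981 to 1238 CPM in the 16 male libraries and 1.73 to 4.86 CPM in the 16 female libraries. The yolk protein genes, which mark female fat body and ovary, stood at 338 CPM in replicate 2 of the wild type males, at 43.9 to 121 CPM in Zhr[1] males and at 6.32 to 17.01 CPM in the other male libraries, against 2067 to 9164 CPM in females. The part of these yolk values in the results on males was not tested. Calls that change without wild type replicate 2 are given with each comparison.

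In males the 9 genes were counted in all 16 libraries, and as a group they summed to 156 ± 30.6 CPM in Pof[D119], 165 ± 12.7 CPM in Zhr[1], 126 ± 10.3 CPM in PoX2[Df1.688] and 122 ± 11.95 CPM in wild type (SD, n = 4 libraries each, scaled over all 32 libraries). The 3 dynein heavy chains made up most of this sum in every stock. In wild type males kl-5 was 30.8 ± 2.69% of it, kl-3 was 29.7 ± 0.564% and kl-2 was 15.9 ± 1.17% (SD, n = 4). Since these genes have the longest exons, the order was different per kilobase. ARY was highest per kilobase in each of the 4 male groups, at 6.46 ± 1.36 CPM per kb in Pof[D119], 11.8 ± 1.18 in Zhr[1], 6.53 ± 0.768 in PoX2[Df1.688] and 5.25 ± 0.400 in wild type. In wild type males kl-5 followed at 2.61 ± 0.423 CPM per kb, then kl-3 at 2.48 ± 0.234, CCY at 2.43 ± 0.346, Ppr-Y at 1.49 ± 0.239, kl-2 at 1.37 ± 0.0807 and ORY at 1.16 ± 0.146. PRY at 0.657 ± 0.0623 and WDY at 0.594 ± 0.0549 CPM per kb were lowest. Among these neighbours, kl-5, kl-3 and CCY differed by less than their SD, and Ppr-Y and kl-2 by less than the SD of Ppr-Y. All levels are of whole flies, in which fewer germline cells and less RNA per cell cannot be told apart.

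**Figure D1:**
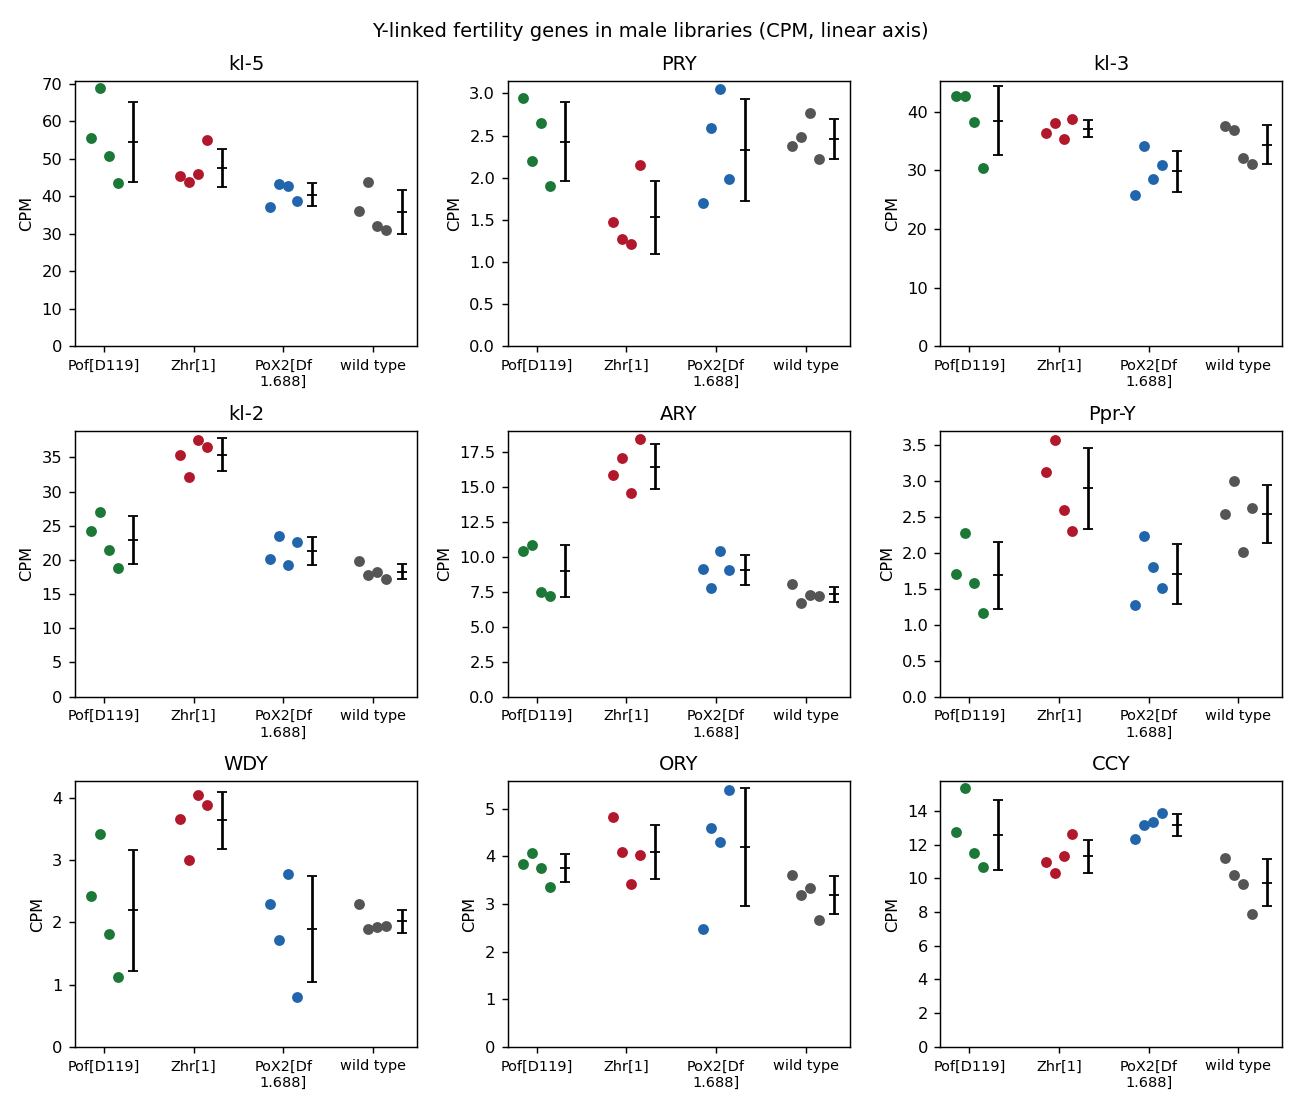
Level of each Y-linked fertility gene in CPM (linear axis from 0) in the 4 libraries of each male group, with the mean and SD at the right of each group. Panels follow the order of the genes along Y. In kl-2 and ARY the Zhr[1] libraries sit apart above the other 12, at 32.1 to 37.6 CPM and 14.6 to 18.4 CPM.

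The question for males was whether the levels of these genes differ between each mutant stock and wild type. Each contrast was tested with edgeR over 13503 genes, and the 3 contrasts share the wild type libraries, so they are not independent. In Zhr[1] males, 4 of the 9 genes rose and 1 fell, where 22.9% of all genes tested were called, 12.6% higher and 10.4% lower. Those that rose were ARY, kl-2, WDY and kl-5, and PRY fell. The median log2 fold change over the 9 genes was 0.35, against -0.0039 over all genes tested.

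kl-2 encodes a dynein heavy chain of the sperm axoneme. It had 35.4, 32.1, 37.6 and 36.6 CPM in Zhr[1] males, against 19.8, 17.8, 18.3 and 17.3 CPM in wild type males. The groups did not overlap, and all 4 Zhr[1] libraries were above every other male library. The log2 fold change was 0.95 ± 0.10 (SE; edgeR adjusted p = 2.3e-06), and exact permutation of the CPM gave p = 0.0286, the smallest that 4 against 4 libraries allow. Of the other genes called in Zhr[1] males, exact permutation gave that p for ARY, WDY and PRY, and p = 0.0571 for kl-5. ARY, the aldehyde reductase gene that is the next fertility gene along Y, had 15.9, 17.03, 14.6 and 18.4 CPM in Zhr[1] males, against 8.05, 6.70, 7.27 and 7.22 CPM in wild type males. These groups did not overlap either, and the log2 fold change was 1.17 ± 0.14 (edgeR adjusted p = 5.8e-06). Both calls held in each of the 15 alternatives run, with a log2 fold change of 0.92 to 1.00 for kl-2 and of 1.11 to 1.22 for ARY. Without wild type replicate 2, the male library with the most yolk protein RNA, kl-2 was at 0.94 and ARY at 1.13. The Zhr[1] males themselves had 43.9 to 121 CPM of yolk protein RNA, and its part in these results was not tested.

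kl-3, the dynein heavy chain gene just before kl-2 in the assembly, had 36.4, 38.02, 35.4 and 38.7 CPM in Zhr[1] males, against 37.5, 36.8, 32.1 and 31.1 CPM in wild type males. Its groups overlapped, and the log2 fold change of 0.11 ± 0.11 did not pass (edgeR adjusted p = 0.509). A ratio of 2 genes within a library does not depend on how libraries are scaled. The ratio of kl-2 counts to kl-3 counts was 0.974, 0.844, 1.06 and 0.946 in Zhr[1] males, against 0.527, 0.485, 0.569 and 0.554 in wild type males. It was 0.563 to 0.634 in Pof[D119] males and 0.674 to 0.779 in PoX2[Df1.688] males, so no Zhr[1] library overlapped with another stock. Over the counts of kl-3, those of kl-5 averaged 1.28 in Zhr[1], 1.42 in Pof[D119], 1.37 in PoX2[Df1.688] and 1.04 in wild type males. In the same order ARY averaged 0.443, 0.233, 0.31 and 0.214, and PRY 0.0411, 0.0632, 0.0784 and 0.0721. The pairs were chosen after their values were seen, and no test is given for them.

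kl-5, which encodes another dynein heavy chain and lies at the start of the assembly, had 45.4, 43.7, 45.8 and 55.1 CPM in Zhr[1] males, against 36, 43.8, 32.1 and 31 CPM in wild type males. The highest wild type library, replicate 2, overlapped with the Zhr[1] group. The log2 fold change was 0.41 ± 0.13 (edgeR adjusted p = 0.0274), and it missed the threshold without wild type replicate 1, 3 or 4 or without Zhr[1] replicate 4 (log2 fold change 0.34 to 0.41, adjusted p = 0.0506 to 0.0905). Without wild type replicate 2 it was 0.52.

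WDY, the WD-repeat gene, had 3.65, 3.00, 4.04 and 3.88 CPM in Zhr[1] males, against 2.29, 1.89, 1.93 and 1.95 CPM in wild type males, with no overlap. The log2 fold change was 0.85 ± 0.30 (edgeR adjusted p = 0.0456), and it missed the threshold without any 1 of the 8 libraries (adjusted p = 0.05002 to 0.101). PRY had 1.47, 1.28, 1.22 and 2.16 CPM in Zhr[1] males, against 2.38, 2.48, 2.77 and 2.22 CPM in wild type males. Here too the groups did not overlap, with a log2 fold change of -0.70 ± 0.23 (edgeR adjusted p = 0.0339). The call was lost without wild type replicate 1, 2 or 3 or without Zhr[1] replicate 1, 2 or 3 (adjusted p = 0.0510 to 0.103). Thus 3 genes, kl-2, ARY and kl-5, were called without wild type replicate 2. The counts of PRY and WDY were low, at 97 and 236 in sum over the Zhr[1] males.

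The remaining genes in Zhr[1] males did not pass. ORY had 3.43 to 4.83 CPM in Zhr[1] males, against 2.65 to 3.61 CPM in wild type males. CCY had 10.3 to 12.7 CPM in Zhr[1] males, against 7.89 to 11.2 CPM in wild type males. Ppr-Y had 2.30 to 3.57 CPM in Zhr[1] males, against 2.01 to 3.00 CPM in wild type males. The ranges overlapped in each, and the log2 fold changes were 0.35, 0.21 and 0.20.

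**Figure D2:**
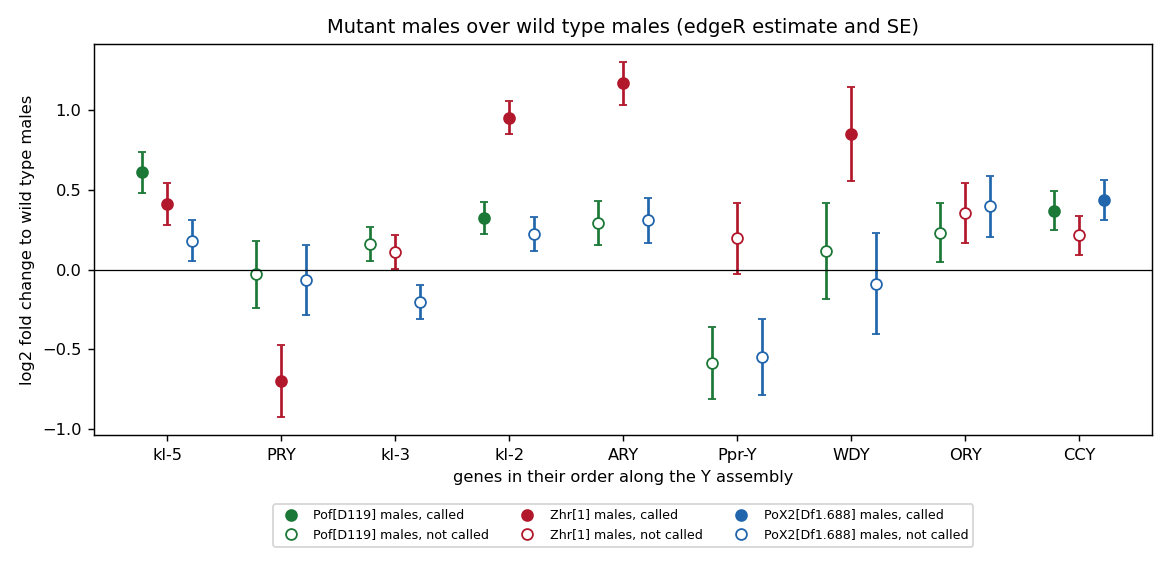
Log2 fold change of each gene in mutant males over wild type males, with its SE from edgeR, in the order of the genes along Y. Filled points passed the threshold. The 2 highest points are kl-2 (0.95) and ARY (1.17) in Zhr[1] males, and their neighbour kl-3 is at 0.11.

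In Pof[D119] males, 3 of the 9 genes rose and none fell, where 25.2% of all genes tested were called, 13.6% higher and 11.6% lower. They were kl-5 and kl-2, which encode dynein heavy chains, and CCY, which encodes a coiled-coil protein. kl-5 had 55.4, 68.7, 50.6 and 43.4 CPM in Pof[D119] males, against 36, 43.8, 32.1 and 31 CPM in wild type males. The lowest Pof[D119] library was just under the highest of wild type, and the log2 fold change was 0.61 ± 0.13 (edgeR adjusted p = 0.00186). This call held in each of the 15 alternatives run, with a log2 fold change of 0.46 to 0.72.

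kl-2 had 24.2, 27.03, 21.5 and 18.8 CPM in Pof[D119] males, against 19.8, 17.8, 18.3 and 17.3 CPM in wild type males, with a log2 fold change of 0.32 ± 0.10 (edgeR adjusted p = 0.0279). CCY had 12.8, 15.4, 11.5 and 10.7 CPM in Pof[D119] males, against 11.2, 10.2, 9.69 and 7.89 CPM in wild type males, with a log2 fold change of 0.37 ± 0.12 (edgeR adjusted p = 0.0346). The groups overlapped in both genes, and exact permutation of the CPM gave p = 0.0571 for each, as it did for kl-5. Both calls were lost without wild type replicate 3 or 4 or without Pof[D119] replicate 1 or 2, at an adjusted p of 0.0611 to 0.107 for kl-2 and 0.0693 to 0.141 for CCY. With replicate 2 of the wild type left out, the same 3 genes were called, at 0.31 for kl-2, 0.72 for kl-5 and 0.39 for CCY on the log2 scale.

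The 21 spermatid and sperm genes summed to 8419, 9691, 7511 and 6534 CPM in Pof[D119] males, against 7489, 7302, 7077 and 7181 CPM in wild type males. The groups overlapped, with replicate 4 of Pof[D119] below all 4 wild type libraries and the other 3 above them. When libraries were scaled to genes of spermatocytes, spermatids and other dynein heavy chains instead, the median of all genes in Pof[D119] males moved to -0.12, and 19.4% of all genes were called, 7.14% higher and 12.2% lower. On that scale kl-5 stayed above wild type by 0.46 (edgeR adjusted p = 0.00315), kl-2 and CCY were at 0.18 and 0.22 and did not pass, and Ppr-Y fell by 0.74 (adjusted p = 0.0202). Ppr-Y had 1.71, 2.28, 1.58 and 1.17 CPM in Pof[D119] males, against 2.54, 3.00, 2.01 and 2.62 CPM in wild type males. Before that scaling its log2 fold change of -0.59 ± 0.23 missed the threshold (edgeR adjusted p = 0.0666). In Zhr[1] and PoX2[Df1.688] males this scaling changed no call among the 9 genes against wild type, where 15.8% and 14.2% of all genes were called.

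In the other 5 genes no change passed in Pof[D119] males. kl-3 had 30.3 to 42.7 CPM in Pof[D119] males, against 31.1 to 37.5 CPM in wild type males. ARY, ORY, WDY and PRY had log2 fold changes of 0.29, 0.23, 0.12 and -0.03. ARY passed without Pof[D119] replicate 4 (0.38, adjusted p = 0.0487), and Ppr-Y without Pof[D119] replicate 2 (-0.77, adjusted p = 0.0287).

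In PoX2[Df1.688] males, 1 of the 9 genes rose and none fell, where 20.9% of all genes tested were called, 11.5% higher and 9.40% lower. This was CCY, the coiled-coil gene at the far end of the assembly, with 12.4, 13.1, 13.4 and 13.9 CPM in PoX2[Df1.688] males, against 11.2, 10.2, 9.69 and 7.89 CPM in wild type males. The groups did not overlap (exact permutation p = 0.0286), and the log2 fold change was 0.44 ± 0.12 (edgeR adjusted p = 0.0183). Without wild type replicate 4 it was 0.35 (adjusted p = 0.0631).

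Its neighbour ORY had 2.47, 4.595, 4.30 and 5.40 CPM in PoX2[Df1.688] males, against 3.61, 3.18, 3.33 and 2.65 CPM in wild type males. Replicate 1 of the mutant was lowest of these 8 libraries. The log2 fold change was 0.40 ± 0.19 (edgeR adjusted p = 0.155), and it passed when that replicate was left out (0.57, adjusted p = 0.0231). The dynein heavy chains kl-2, kl-3 and kl-5 had log2 fold changes of 0.22, -0.20 and 0.18, and none passed. ARY was at 0.31, Ppr-Y at -0.55, PRY at -0.07 and WDY at -0.09, also without a call.

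When the spread was estimated over all 32 libraries in 1 fit, kl-5 in Pof[D119] and kl-2 and ARY in Zhr[1] stayed called against wild type. The calls of kl-2 and CCY in Pof[D119], of kl-5, PRY and WDY in Zhr[1] and of CCY in PoX2[Df1.688] were lost (edgeR adjusted p = 0.0631 to 0.202). In that fit 19.2% of all genes were called in Pof[D119], 19.5% in Zhr[1] and 18.4% in PoX2[Df1.688] males.

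Between mutants, Pof[D119] males were above Zhr[1] males in PRY and below them in kl-2, Ppr-Y and ARY, where 24.2% of all genes were called, 12.1% each way. The log2 fold changes were -0.63 for kl-2 and -0.88 for ARY (edgeR adjusted p = 0.000205 and 0.000131), which held in all alternatives run. PRY (0.67) and Ppr-Y (-0.78) passed at an adjusted p of 0.0447 and 0.0206. Exact permutation of the CPM gave p = 0.0571 for PRY and 0.0286 for Ppr-Y, kl-2 and ARY. PRY was lost without replicate 1, 2 or 3 of either stock (adjusted p = 0.0563 to 0.129), and Ppr-Y without Pof[D119] replicate 3 or 4 or Zhr[1] replicate 1 or 2 (adjusted p = 0.0505 to 0.0677). WDY, at -0.74, was not called but passed without Pof[D119] replicate 2 (-1.05, adjusted p = 0.0206). Scaled to the testis lists, where 18.9% of all genes were called, WDY passed (-0.90, adjusted p = 0.0267) and PRY did not (0.56, adjusted p = 0.0814).

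Pof[D119] males were above PoX2[Df1.688] males in kl-3 and kl-5, by 0.37 and 0.43 on the log2 scale (edgeR adjusted p = 0.0231 and 0.0248), where 20.7% of all genes were called, 10.3% higher and 10.4% lower. Exact permutation of the CPM gave p = 0.0857 for kl-3 and 0.0286 for kl-5. Both calls were lost without Pof[D119] replicate 1 or 2 or PoX2[Df1.688] replicate 1, that of kl-3 also without PoX2[Df1.688] replicate 3, and that of kl-5 also without PoX2[Df1.688] replicate 4 (adjusted p = 0.0535 to 0.107 over both genes). When scaled to the testis lists the values were 0.19 and 0.25, and neither passed, where 16.6% of all genes did.

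Zhr[1] males were above PoX2[Df1.688] males in kl-2, ARY, Ppr-Y and WDY, where 18.1% of all genes were called, 8.68% higher and 9.39% lower. kl-2 (0.73) and ARY (0.86) passed at an edgeR adjusted p of 8.4e-05 and 0.000295 and held in all alternatives run. Ppr-Y (0.74) and WDY (0.94) passed at 0.0424 and 0.0499. Ppr-Y was lost without PoX2[Df1.688] replicate 1, 3 or 4 or Zhr[1] replicate 1, 2 or 3, and WDY without any single library except PoX2[Df1.688] replicate 3 (adjusted p = 0.0516 to 0.136 over both genes). Scaled to the testis lists, the same 4 genes passed, where 11.8% of all genes did. kl-3 was not called but passed without PoX2[Df1.688] replicate 2 (0.38, adjusted p = 0.0298), and PRY without Zhr[1] replicate 4 (-0.83, adjusted p = 0.0318). When the 4 male groups were put in order of their mean level for each gene, 2 of the 27 steps between neighbours passed the test. These were the steps between Zhr[1] and the next group for kl-2 and ARY.

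In females the question was whether any stock has transcripts of these genes. Over the 4 libraries of a stock, all 9 genes together had 7 counts in Pof[D119], 74 in Zhr[1], 1 in PoX2[Df1.688] and 10 in wild type. By library the sums were 2, 4, 0 and 1 for Pof[D119], 23, 23, 18 and 10 for Zhr[1], 0, 1, 0 and 0 for PoX2[Df1.688], and 0, 6, 2 and 2 for wild type females. Every Zhr[1] library was above every library of the other stocks. Summed over the 9 genes this was 1.03 ± 0.313 CPM in Zhr[1] females, against 0.0741 ± 0.0741 CPM for Pof[D119], 0.0121 ± 0.0242 CPM for PoX2[Df1.688] and 0.0817 ± 0.0764 CPM for wild type females (SD, n = 4 each, scaled over all 32 libraries).

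As a share of the level in males of the same stock, the 9 genes reached 0.631% in Zhr[1] females (exact Poisson 95% interval 0.495 to 0.792%). The share was 0.0456% (0.0183 to 0.0940%) in Pof[D119] females, 0.0124% (0.000313 to 0.0689%) in PoX2[Df1.688] females and 0.0687% (0.0329 to 0.126%) in wild type females. These intervals cover counting error only. Among the stocks, the interval of Zhr[1] stood apart above the other 3.

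kl-2 and kl-3 carried most of the counts in Zhr[1] females. kl-2 had 14, 16, 10 and 2 counts in Zhr[1] females, against 0, 4, 1 and 1 counts in wild type females. Replicate 4 of the Zhr[1] females, at 2 counts, fell inside the range of wild type. kl-3 had 9, 7, 4 and 6 counts in Zhr[1] females, against 0 counts in all 4 libraries of wild type females, so its groups did not overlap. In the other females kl-2 had 1 count and kl-3 had 1 count in Pof[D119], and both had 0 in PoX2[Df1.688].

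None of the 9 genes passed the filter on low counts in the fit of the 16 female libraries, in which 16.5% of 11938 genes were called for Pof[D119], 41.1% for Zhr[1] and 19.4% for PoX2[Df1.688]. With all genes of at least 10 counts in sum admitted, 14633 genes were tested and 33.2% of them were called in Zhr[1] females (16.7% of those tested were higher). In that fit kl-2 had a log2 fold change of 3.38 (edgeR adjusted p = 0.00757) and kl-3 one of 6.05 (adjusted p = 0.00167) in Zhr[1] females over wild type females. Both genes reach 10 counts in sum only through Zhr[1] females, so these calls are a description. Because kl-3 was at 0 in wild type, its fitted value is no measure of size. Against 3 counts per library in wild type, kl-3 was at least 3.71-fold higher in Zhr[1] females. Both genes stayed called when each of the 8 libraries was left out, at an adjusted p of 0.00306 to 0.0257. Neither passed in Pof[D119] or PoX2[Df1.688] females, where 12.7% and 15.1% of genes were called.

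The other 7 genes had at most 2 counts each in Zhr[1] females. kl-5, which had more counts than either in Zhr[1] males, had 0, 0, 0 and 2 counts in Zhr[1] females. ARY and WDY had 2 counts each, all in replicate 3. ORY, CCY, PRY and Ppr-Y had 0 counts in all 4 libraries.

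Relative to Zhr[1] males, kl-2 stood at 1.62% (exact Poisson 95% interval 1.17 to 2.19%) and kl-3 at 0.956% (0.624 to 1.40%) in Zhr[1] females. For kl-5 the share was 0.0574% (0.00695 to 0.207%), for ARY 0.166% (0.0201 to 0.598%) and for WDY 0.750% (0.0908 to 2.71%). The intervals of kl-5 and ARY lay below those of kl-2 and kl-3, and that of WDY overlapped with both. For the genes at 0, 3 counts per library set a limit, and Zhr[1] males were at least 68.3-fold higher in CCY, 24.7-fold in ORY, 17.5-fold in Ppr-Y and 9.26-fold in PRY. CCY, with an upper limit of 0.444%, was below the intervals of kl-2 and kl-3. For ORY, Ppr-Y and PRY the upper limits were 1.23%, 1.74% and 3.28%, and shares inside the intervals of kl-2 and kl-3 were not detectable at this depth.

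**Figure D3:**
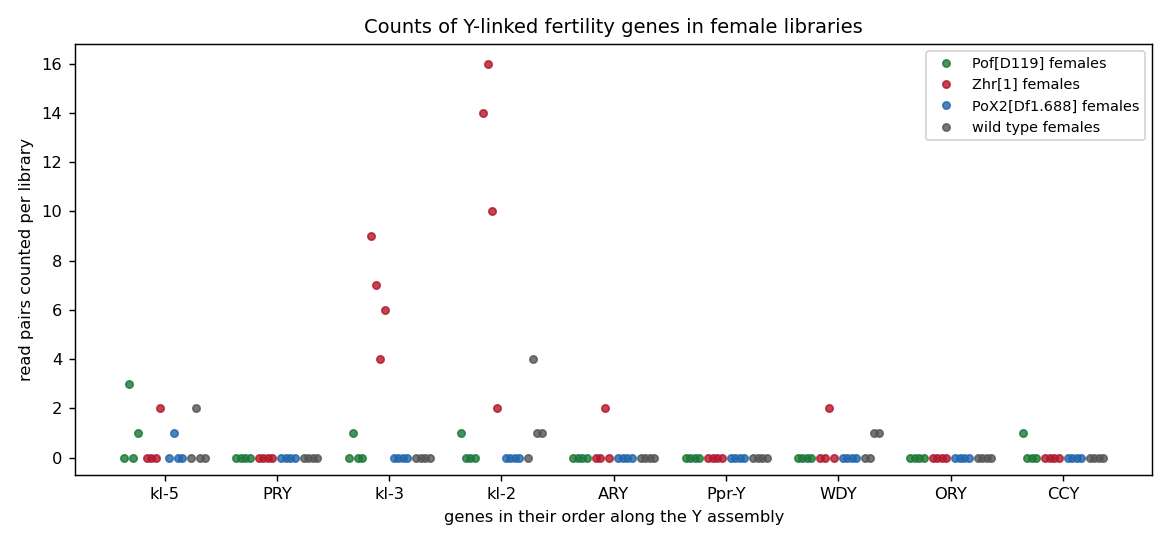
Read pairs counted for each gene in the 4 female libraries of each stock, with genes in their order along Y (linear axis). Zhr[1] females reach 16 counts in kl-2 and 9 in kl-3, and no library of another stock is above 4 counts in any gene.

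In the other female stocks single counts were scattered. In Pof[D119] females 4 of the 9 genes had a count, with kl-5 at 0, 3, 0 and 1. In wild type females 3 genes had a count, kl-2 with 6, and kl-5 and WDY with 2 each. In PoX2[Df1.688] females only kl-5 had one, in replicate 2. Genes at 0 in wild type females were at least 359-fold (kl-3), 102-fold (CCY), 76.4-fold (ARY), 33.4-fold (ORY), 26.6-fold (Ppr-Y) and 25.7-fold (PRY) higher in wild type males against 3 counts per library.

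All 9 genes were called higher in males than in females of each stock, where 61.8% of genes were called in Pof[D119], 70.7% in Zhr[1], 61.9% in PoX2[Df1.688] and 60.7% in wild type, and 32.9%, 43.0%, 36.3% and 34.3% were higher in males in the same order of stocks. As the genes pass the filter only through males, this is a description. The lists of male genes place the female values. Spermatid and sperm genes, such as the Mst genes of sperm chromatin and tail, stood in females at 0.392% of males in Pof[D119], 0.311% in Zhr[1], 0.330% in PoX2[Df1.688] and 0.325% in wild type. Accessory gland and ejaculatory duct genes, which encode seminal fluid proteins, stood at 0.285%, 0.199%, 0.269% and 0.289% in the same order of stocks. Both lists stood lowest in the Zhr[1] stock, as did the RNA-binding proteins of the Y loops, at 57.2%. The roX RNAs, the spermatocyte transcription genes and the early male germline genes stood highest there. They were at 0.356%, 14.1% and 38.3% in Zhr[1], against 0.323%, 12.6% and 16.1% in wild type. The early male germline genes were at 26.2% in PoX2[Df1.688] and 11.6% in Pof[D119]. In each stock 1 of these 4 early genes was called lower in males than in females, so the share of that list does not measure male germline RNA. The lists of dynein genes outside Y stood neither lowest nor highest there. The Y-linked genes were below the spermatid and the accessory gland lists in 3 stocks and above both in Zhr[1]. Of the 8 spermatid genes tested in females, Mst87F rose in Zhr[1], at 0.966 ± 0.391 CPM in Zhr[1] females and 0.160 ± 0.113 CPM in wild type females (SD, n = 4 each; edgeR adjusted p = 0.00270), whereas loopin-1 (-1.89) and Mst98Ca (-1.78) fell. Mst87F had 18 counts in sum in wild type females, and loopin-1 and Mst98Ca had 28 and 10 in Zhr[1] females. With 1 group so near the floor, these calls are a description. In that comparison 41.1% of all genes tested were called. The early germline genes twe (1.18) and bam (0.66), which are also used in the ovary, rose in Zhr[1] females. The calls of Mst98Ca and bam were lost without 5 and 4 of the 8 libraries.

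**Figure D4:**
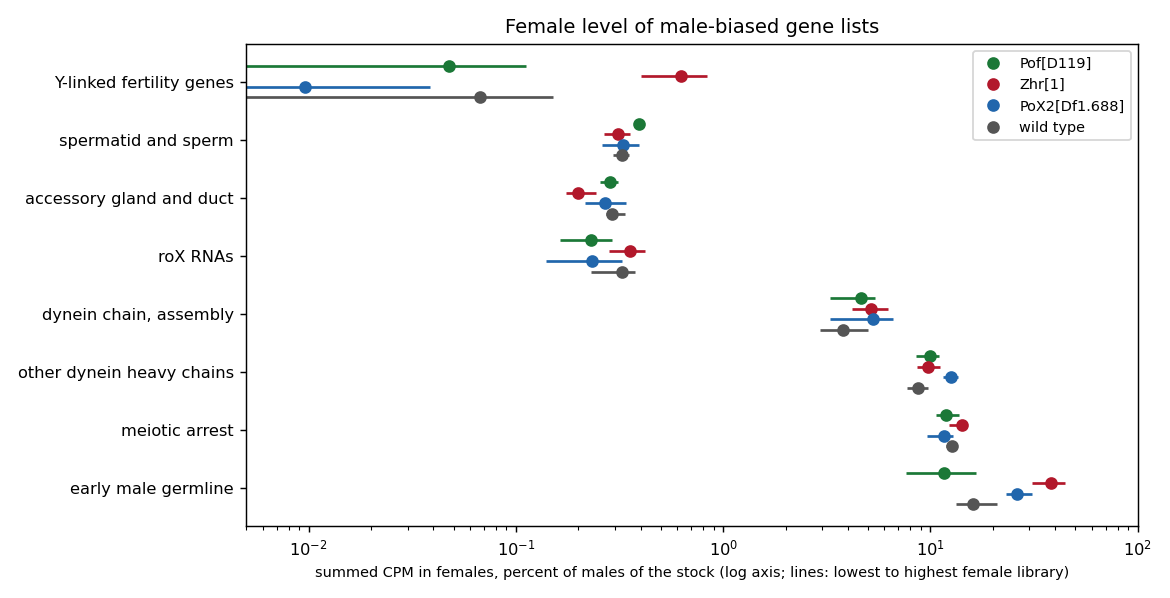
Summed CPM of gene lists in females as percent of males of the same stock (log axis), with lines for the lowest and highest of 4 female libraries (lines that reach the left edge go down to 0). The Y-linked fertility genes stand at 0.626% in Zhr[1] by mean CPM and at 0.0096% to 0.0668% in the other stocks, whereas the spermatid list lies between 0.311% and 0.392% in all 4.

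Other rows on Y differed in the same stock. A count in all 4 female libraries was found for 3 of the 113 rows in Pof[D119] females, 21 in Zhr[1], 1 in PoX2[Df1.688] and 2 in wild type. The 21 rows in Zhr[1] females were kl-2, kl-3, 13 rows of Su(Ste) and 6 others. Su(Ste) is a repeated locus whose RNA silences the Stellate genes of the X in the male germline. Its copies are nearly identical, so how counts fall among them is uncertain.

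Over its 27 rows Su(Ste) had 643, 567, 544 and 542 counts in Zhr[1] females, against 0, 1, 0 and 0 counts in wild type females. The groups were far apart, and Pof[D119] and PoX2[Df1.688] females had 1 count each. Zhr[1] males had 142, 112, 109 and 93 counts, so that in CPM the Zhr[1] females stood at 451% of the males. Most counts came from Su(Ste):CR42430, with 510, 451, 420 and 415 counts in Zhr[1] females. It was at 0 in wild type females, and Zhr[1] females were at least 254-fold higher against 3 counts per library (edgeR adjusted p = 1.1e-06). As the row passes the filter only through Zhr[1] females, this is a description. The 12 Stellate rows of X summed to 2 counts in Zhr[1] females and 4 counts in wild type females. In males they summed to 9 in Zhr[1], 29 in Pof[D119], 20 in PoX2[Df1.688] and 88 in wild type. These sums are not scaled to depth.

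The 13 Su(Ste) rows with counts in all 4 Zhr[1] female libraries lie between positions 869892 and 1035493, next after ARY. The 6 other rows are FDY (36 counts), CR41506 (16), CG45764 (5), Mst77Y-7 (45), CR45775 (11) and CR43176 (36), and they lie between positions 3022289 and 3365197. kl-5 and PRY before kl-3 had 2 and 0 counts, and ORY and CCY at the other end had 0. FDY and Mst77Y-7 belong to Y genes copied from other chromosomes, and Mst77Y-7 is one of several similar copies, so its counts are uncertain too.

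**Figure D5:**
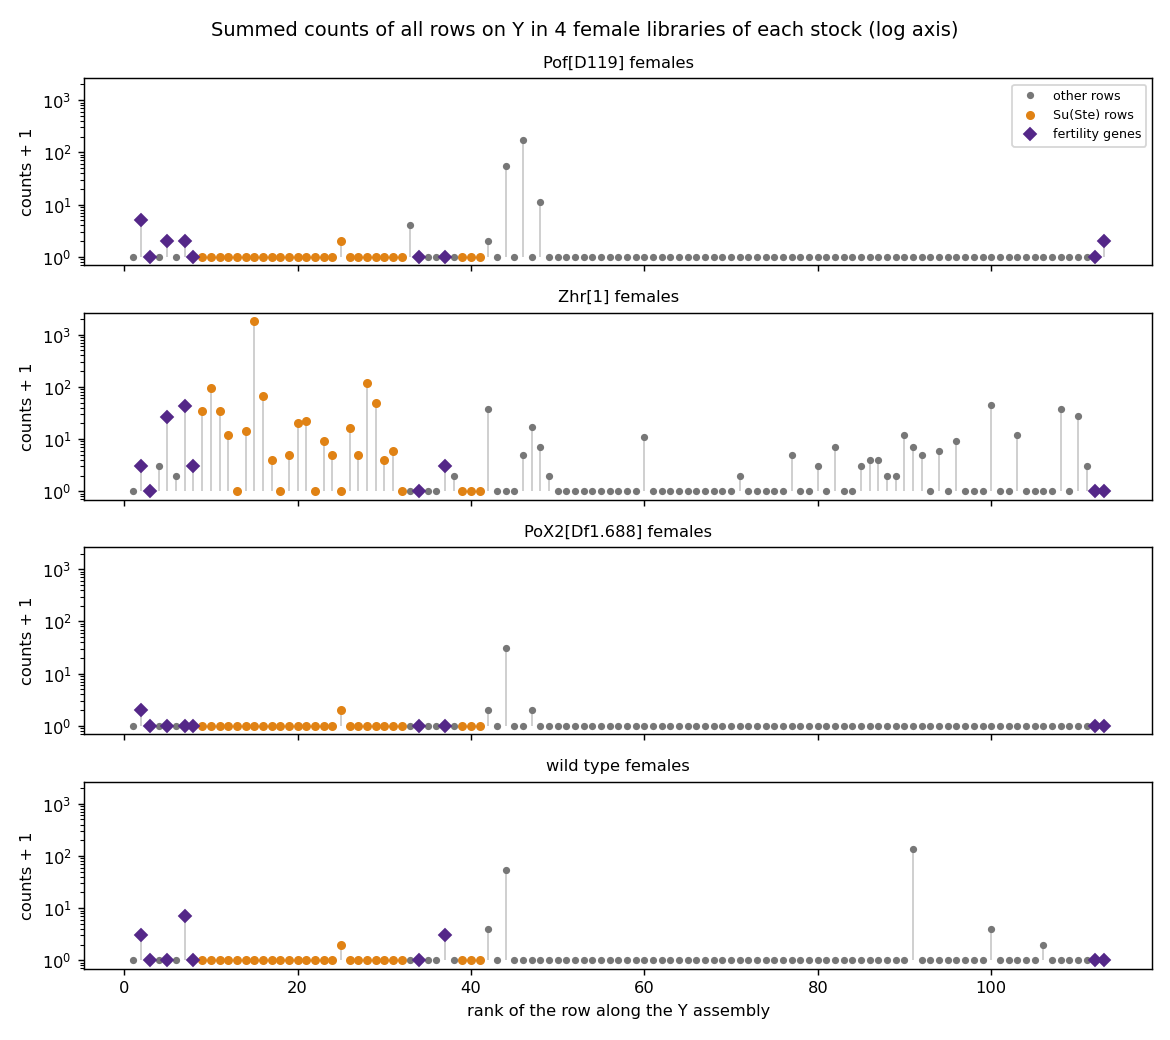
Counts (plus 1, log axis) summed over the 4 female libraries of each stock for all 113 rows on Y, in their order along the assembly. In Zhr[1] females counts appear at kl-3 and kl-2, at the Su(Ste) rows that follow and at rows after rank 40, and the last fertility genes are at 0.

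Among the other rows on Y, the highest counts in females of the remaining stocks were those of 3 noncoding rows. CR40801 had 132 counts in wild type females, against 0 in Pof[D119], 6 in Zhr[1] and 0 in PoX2[Df1.688] females, and was called lower in each mutant. It passes the filter only through wild type females, so these calls are a description. CR41509 had 173 counts in Pof[D119] females, against 0 in wild type females. CR41507 had 55 counts in Pof[D119], 0 in Zhr[1], 30 in PoX2[Df1.688] and 53 in wild type females. In males CR40801 had 3 counts in Pof[D119], 5 in Zhr[1], 5 in PoX2[Df1.688] and 117 in wild type, and CR41509 had 106, 3, 1 and 4 in the same order of stocks. Reads of such repeats could come from other chromosomes, which was not tested.

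Beyond the 9 genes, 10 of the 104 other rows on Y were tested in males. In Zhr[1] males 7 rose and 1 fell, where 12.6% of all genes rose and 10.4% fell. For the other stocks below, 13.6% of all genes rose in Pof[D119] males and 9.40% fell in PoX2[Df1.688] males. Pp1-Y1, a protein phosphatase gene of Y, fell to 2 counts in sum in Zhr[1] males, against 181 in wild type males (log2 fold change -5.23 ± 0.67, edgeR adjusted p = 1.7e-05). Pp1-Y2, a gene of the same kind, had 12.8 CPM in Zhr[1] males and 5.55 CPM in wild type males, a log2 fold change of 1.21. Mst77Y-13 and Su(Ste):CR42430 rose by 1.52 each. Of the 7 that rose, FDY, CR45771, CR45775 and Mst77Y-7 were between 0.64 and 1.18. In Pof[D119] males 2 of these 10 rows rose, CR41509 (4.99) and Su(Ste):CR42430 (0.74), and in PoX2[Df1.688] males FDY fell by 0.73, which was lost without PoX2[Df1.688] replicate 1 or 4, at an adjusted p of up to 0.0697. Su(Ste):CR42430 in Pof[D119] males was lost without wild type replicate 2, 3 or 4 or Pof[D119] replicate 1, 2 or 3 (log2 fold change 0.61 to 0.78, adjusted p = 0.0520 to 0.122). CR41509 passes the filter in males only through Pof[D119], so its call is a description.

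Dynein genes outside Y were compared in the same males. Of 4 genes for dynein intermediate chains and assembly factors, none was called in any mutant against wild type. Of 6 other dynein heavy chain genes, 2 rose and 1 fell in Pof[D119] males, 1 rose and 1 fell in Zhr[1] males, and 2 rose and 1 fell in PoX2[Df1.688] males. Over all genes tested, 13.6%, 12.6% and 11.5% rose and 11.6%, 10.4% and 9.40% fell, in the same order of stocks. CG3339, a dynein heavy chain, rose in all 3, by 1.00 on the log2 scale in Pof[D119], 0.93 in Zhr[1] and 0.62 in PoX2[Df1.688]. Dhc98D fell in Pof[D119] and PoX2[Df1.688] males (-0.30 and -0.58), Dhc62B fell in Zhr[1] males (-0.29), Dhc36C rose in Pof[D119] males (0.70) and Dhc93AB in PoX2[Df1.688] males (0.46). With 1 of 8 libraries left out, Dhc98D in Pof[D119], Dhc62B, Dhc93AB, and CG3339 in PoX2[Df1.688] were lost 3, 6, 3 and 3 times.

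The RNA-binding proteins of the Y loops include heph and Rb97D. Of 5, 1 fell in Pof[D119] males (heph, -0.32), 2 fell in Zhr[1] males (Rb97D, -0.33, and heph, -0.21) and 1 fell in PoX2[Df1.688] males (Rb97D, -0.43). For this list and the 2 that follow, 11.6%, 10.4% and 9.40% of all genes tested fell in the 3 stocks in that order. In Pof[D119] males 13.6% rose. The 10 spermatocyte transcription genes, whose loss arrests meiosis, gave 1 higher in Pof[D119] (Taf12L, 0.58), 1 lower in Zhr[1] (mia, -0.82) and 3 lower in PoX2[Df1.688] (mia, -1.06, sa, -0.60, and kmg, -0.40). Of 4 early male germline genes, none was called in Pof[D119], bgcn fell in Zhr[1] (-0.59), and Rbp4 (-0.40) and bgcn (-0.35) fell in PoX2[Df1.688]. With 1 of 8 libraries left out, Taf12L was lost 5 times, heph in Zhr[1] 6 times, kmg 6 times, and in PoX2[Df1.688] Rbp4 3 and bgcn 6 times.

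Of the 20 spermatid and sperm genes tested, 7 rose and 1 fell in Pof[D119] males, 4 rose in Zhr[1] males, and 3 rose and 1 fell in PoX2[Df1.688] males. Over all genes tested 25.2%, 22.9% and 20.9% were called in these stocks. The shares that rose were 13.6%, 12.6% and 11.5%, in the same order. Mst87F, a sperm tail protein gene, rose in all 3 (0.84 in Pof[D119], 0.39 in Zhr[1] and 0.72 in PoX2[Df1.688]). Janus B (janB) rose in Pof[D119] and PoX2[Df1.688] (0.74 and 0.50), Mst84Db in Zhr[1] and PoX2[Df1.688] (0.41 and 0.71), and ocn in Pof[D119] and Zhr[1] (0.53 and 0.37). In Zhr[1] Mst87F and Mst84Db were each lost 5 times of 8. Medians of this list were 0.20, 0.04 and 0.01 in the 3 stocks in that order, and those of the 9 Y-linked genes were 0.23, 0.35 and 0.18.

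Outside the germline, of 9 accessory gland and duct genes tested, 7 rose in Pof[D119] males, 5 rose and 1 fell in Zhr[1] males and 4 rose in PoX2[Df1.688] males. Over all genes tested 13.6%, 12.6% and 11.5% rose in the same order of stocks. Acp63F, a seminal fluid protein, rose in all 3, by 1.64, 1.30 and 1.40. SP (sex peptide) rose in Pof[D119] and PoX2[Df1.688] (1.33 and 0.98), Acp26Aa in Pof[D119] and Zhr[1] (0.87 and 1.11), Dup99B in Zhr[1] (0.80) and Acp62F in PoX2[Df1.688] (0.96). Of the 2 roX RNAs, roX2 rose in Pof[D119] males (0.44) and none was called in the other mutants. The 3 yolk protein genes were called lower in Pof[D119] males and Yp1 in PoX2[Df1.688] males, which rests on wild type replicate 2. Without it Yp2 and Yp3 were at 0.53 and 0.03 in Pof[D119] and Yp1 at 0.52 in PoX2[Df1.688], with no call.

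The pattern of the 9 genes over the 16 male libraries, taken as the mean of their standardised log2 CPM, was most like that of CG11227 (Pearson r = 0.906), CG34241 (0.901), CG12470 (0.90), CG11327 (0.90) and CG31709 (0.878) among 12364 other genes of at least 1 CPM. These are descriptions over libraries that share depth and tissue make-up. CG34241 averaged 26.2 ± 7.87 CPM in Pof[D119], 30.4 ± 4.11 CPM in Zhr[1], 23.4 ± 2.85 CPM in PoX2[Df1.688] and 19.5 ± 1.51 CPM in wild type males (SD, n = 4 each). Among the Y-linked genes themselves kl-2 and kl-5 followed the mean pattern most closely (0.793 each), then kl-3 (0.752), ARY (0.745), WDY (0.681), ORY (0.612), CCY (0.537) and Ppr-Y (0.454), and PRY did not (-0.117). Each of the 9 is itself part of that mean, which raises its r, unlike for the genes outside the 9.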

How the data were processed

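The authors trimmed reads with Trimmomatic 0.36, removed ribosomal reads, aligned to release 6.13 with STAR 2.5.4b and deposited counts per gene made with featureCounts 1.6.3. A count is a read pair with both mates aligned, without regard to strand, and pairs of several places or genes were left out, which lowers counts in near-identical Y copies. Here the quasi-likelihood test in edgeR 4.0.16 (R 4.3.3) was run on the counts with filterByExpr and TMM, on 16 male libraries, on 16 female libraries and, between sexes, on all 32, two-sided, with p adjusted after Benjamini and Hochberg over all genes tested and 0.05 as threshold. SE is the absolute log2 fold change divided by the square root of F. CPM uses TMM-scaled library sizes. DESeq2 1.42.0, other scalings and filters, a replicate block and leaving out each library were alternatives. Leave-one-out of the fit on genes with 10 counts in sum was added after the data were seen. Exact permutation tests used CPM of 4 against 4 libraries. The 9 genes and the 9 gene lists (65 of 66 entries matched) were chosen with earlier results of these data known. Named list genes are, per list and comparison, up to 3 called genes of the largest change. Those of females, and the ratios of genes, were added after their values were seen. In simulated counts for Pof[D119] against wild type, 85 of 100 genes changed by 1 on the log2 scale and 96 of 100 changed by 2 were called in males, over 13342 genes, with 7 false calls. Replicates are separate pools of flies, and whether they came from separate cultures is not given in the sources used here, so p measures the spread between these samples. Satellite repeats were not analysed here. Figures used Python 3.11.15 and matplotlib 3.10.9.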

Additional observations from a re-analysis of the deposited data

Results flagged for a closer look

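WDY stood at 2.29 CPM in replicate 1 of the wild type males, apart from 1.89 to 1.95 CPM in the other 3 libraries of that group. The summed CPM of the 9 genes in PoX2[Df1.688] females was 0.0514 in replicate 2, against 0 in the other 3, scaled over the female libraries, and rests on 1 count of kl-5. These 2 were marked because 1 sample of 4 lay far from the rest, by a limit that chance passes in about 1 of 20 groups, and 40 groups were examined.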

How the results depend on the processing

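For the 9 genes in the 6 contrasts of males, scaling by RLE and the strict filter changed no call of 54. DESeq2 added 1 (kl-3, Zhr[1] over PoX2[Df1.688] males) and no filter lost 2 (PRY, Pof[D119] over Zhr[1], and WDY, Zhr[1] over PoX2[Df1.688] males). With all 32 libraries in the fit 11 calls were lost, leaving 1 gene called in Pof[D119], 2 in Zhr[1] and 0 in PoX2[Df1.688] against wild type, 2 in Pof[D119] against Zhr[1], 1 in Pof[D119] against PoX2[Df1.688] and 2 in Zhr[1] against PoX2[Df1.688] males. Between mutants, in the same order, 18.9%, 16.6% and 14.3% of all genes were called in that fit. Scaled to the testis lists, 0 genes of the 9 were called in Pof[D119] against PoX2[Df1.688] males, and 1589 of all genes in Zhr[1] against PoX2[Df1.688] males. The cause was not tested.

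With 1 library left out the number of the 9 genes called was 1 to 4 in Pof[D119], 2 to 3 in Zhr[1] and 0 to 2 in PoX2[Df1.688] males against wild type, 2 to 4 in Pof[D119] against Zhr[1], 0 to 2 in Pof[D119] against PoX2[Df1.688] and 2 to 4 in Zhr[1] against PoX2[Df1.688] males, and 0 to 1 in Zhr[1] females against wild type. With all female libraries none of the 9 genes passed the filter. A gene that did so with 1 left out passed only through Zhr[1] females, so its call is a description. Fewer samples enter the fits with 1 library left out, and the number of all genes called moved as well. Against wild type it was 2559 to 3545 in Pof[D119], 2354 to 3427 in Zhr[1] and 2079 to 3085 in PoX2[Df1.688] males. Between mutants, in the same order, it was 2604 to 3248, 2141 to 3142 and 1933 to 2185. In Zhr[1] females against wild type it was 3857 to 4784. No fold change of the 9 genes that was called turned its sign. With 1 library left out, Yp2 ran between -4.81 and 0.53 and Yp3 between -3.01 and 0.032 in Pof[D119], and Yp1 between -4.84 and 0.52 in PoX2[Df1.688] males, and all 3 were positive without wild type males replicate 2.

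With 10 counts in sum as filter, 2 genes were called in Zhr[1] females, through whose counts alone they passed that filter. With all rows on Y in place of the 9 genes, female sums were 2.63 CPM in Pof[D119], 38.5 in Zhr[1], 0.546 in PoX2[Df1.688] and 1.79 in wild type, scaled over the 16 female libraries, since the set holds more rows. Same-numbered libraries correlated above 0.1 in 9 of 24 pairs of males, against 13 of 72 pairs with different numbers (medians 0.0265 and -0.00765). In females it was 3 of 24 against 17 of 72 (medians -0.0181 and 0.00545). Whether replicate numbers pair the samples was not tested. With the replicate block 4 of the 9 genes were called in Pof[D119], 4 in Zhr[1] and 1 in PoX2[Df1.688] males against wild type, where 24.5%, 22.6% and 20.4% of all genes were. In females none of the 9 genes passed the filter of that fit, so none could be called. The calls gained were Ppr-Y, lower in Pof[D119] than in wild type, and kl-3, higher in Zhr[1] than in PoX2[Df1.688] males. Those lost were PRY in Zhr[1] against wild type and in Pof[D119] against Zhr[1] males.

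Depth limits the female values, where 1 count was 0.0514 CPM in PoX2[Df1.688] replicate 2, and genes such as PRY, at most 109 counts in a male library.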
